A study of Mus musculus with 15 samples.

Results

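The BCL2 family genes of cell death were taken by symbol: Bcl2, Bcl2l1, Bax, Bak1, Bcl2l11, Bid, Bbc3, Pmaip1, Bmf and Bad. They are 10 of the 40174 gene symbols counted, each of them had a row in every table, and all 10 passed the filter on low counts. The left ventricles came from C57BL/6 mice aged 2 months, and total RNA was sequenced. RBM20 is a muscle RNA-binding protein that directs the splicing of titin and other heart transcripts, and the study set out to learn how a pair of Rbm20 mutations act in cardiac remodelling. WT mice carried no Rbm20 mutation. G-line mice carried the Rbm20 S639G allele, as heterozygotes (G-line HET, written +/- in the labels) or homozygotes (G-line HOM, written -/-). A-line mice carried Rbm20 S637A, again as heterozygotes (A-line HET) or homozygotes (A-line HOM). Each of these 5 groups has 3 labelled libraries, but replicates 2 and 3 of A-line HOM had the same counts as replicates 2 and 3 of WT in all 40174 symbols. Both were counted once, as WT, so 13 libraries were compared: 3 each of WT, G-line HET, G-line HOM and A-line HET, and 1 of A-line HOM. Which name the shared pair should carry cannot be read from the labels, and every comparison with WT depends on it. Whether libraries of a group are from separate animals is not in the labels, and the p-values measure the spread between libraries, which may be technical.

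Proteins of the BCL2 family decide whether the outer mitochondrial membrane is opened in apoptosis. BCL2 and BCL-XL, the product of Bcl2l1, hold the effectors BAX and BAK in check, and BAX and BAK form the pores through which cytochrome c leaves. BH3-only proteins such as BIM (Bcl2l11), BID, PUMA (Bbc3), NOXA (Pmaip1), BMF and BAD bind the guardians, and some of them also activate the effectors directly. Adult cardiomyocytes rarely divide, and loss of cells by this route is one of the processes studied in failing hearts.

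WT libraries held 25279202 to 26549906 counts. G-line libraries held 23714906 to 28121438 counts as heterozygotes and 20324529 to 29436407 as homozygotes. Those of A-line HET were shallower, with 12959087 to 17448328 counts, and the A-line HOM library held 17507813. All 7 ventricular cardiomyocyte markers were present in every group. Levels are given as CPM, the counts of a gene relative to the total of its library after TMM scaling. The markers' summed level was 47216 to 51810 CPM in WT and 36697 to 39916 CPM in G-line HOM. T cell and B cell markers summed to at most 1.29 and 6.33 CPM in any library. The summed level of 4 atrial markers, among them the natriuretic peptide gene Nppa, was 77.6 to 2395 CPM in WT, 974.7 to 2991 and 4694 to 8003 CPM in G-line HET and HOM, 949 to 4059 CPM in A-line HET and 4348 CPM in the single A-line HOM library. The part of this sum in the results was not tested. Within this list Myl7, an atrial myosin light chain, set 3 libraries apart. It was at 524 CPM in WT replicate 2, 240 CPM in A-line HET replicate 3, 45.8 CPM in the first G-line HOM library, and at most 3.43 CPM elsewhere. The clock gene Arntl reached 24.6 CPM in that G-line HOM library and 29.04 CPM in the second A-line HET library, beside at most 5.28 CPM in the others.

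The windows before the start sites of Bcl2l11 and Bcl2 are shown because these 2 genes were higher than WT in all mutant groups, as described after them. Each is 250 bases long, from RefSeq on GRCm38.p6, an earlier build than the GRCm39 the authors aligned to. Bcl2l11 lies at chr2:128125788-128126037 on the plus strand and Bcl2 at chr1:106714291-106714540 on the minus strand. Capitals mark matches to the FOXO motif GTAAACA or to the GC box GGGCGG, searched on both strands, so that a GC box on the other strand reads CCGCCC.
Bcl2l11: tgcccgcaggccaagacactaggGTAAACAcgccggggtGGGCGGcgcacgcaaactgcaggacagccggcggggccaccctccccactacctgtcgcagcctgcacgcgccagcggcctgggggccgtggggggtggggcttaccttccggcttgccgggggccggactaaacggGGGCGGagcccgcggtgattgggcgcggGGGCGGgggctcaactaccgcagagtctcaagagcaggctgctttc
Bcl2: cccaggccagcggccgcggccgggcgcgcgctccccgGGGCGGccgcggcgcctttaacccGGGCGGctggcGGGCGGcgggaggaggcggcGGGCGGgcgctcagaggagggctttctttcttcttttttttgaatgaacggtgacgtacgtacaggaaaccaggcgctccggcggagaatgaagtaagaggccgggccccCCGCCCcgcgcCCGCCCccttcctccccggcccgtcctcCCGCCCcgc

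The Bcl2l11 window was 72.0% G and C and held 1 FOXO match and 3 GC boxes. In the Bcl2 window, 74.8% G and C, there were 7 GC boxes and no FOXO match. The median over all 27025 gene windows of this length was 52.0%. The FOXO letters occurred in 3.064% of them and the GC box in 32.96%. Of the 9 members with a window (Pmaip1 has none), 6 held a GC box: Bad, Bax, Bbc3, Bcl2, Bcl2l11 and Bid. The E-box CACGTG, present in 6.043% of all windows, was found only in Bax among the 9. No member window held the cyclic AMP response element TGACGTCA (1.599% of all windows), the AP-1 motif TGANTCA (6.853%) or the ATF4-C/EBP motif TGATGNAA (3.534%). These matches describe letters only.

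Bcl2, the founding guardian of the family, was higher than WT in every mutant group. It was at 15.2, 15.3 and 18.3 CPM in the WT libraries. G-line HET libraries held 40.2, 33.2 and 35.8 CPM and G-line HOM libraries 53.9, 66.7 and 52.3 CPM. No mutant library overlapped with WT, and the G-line HOM libraries lay above all others. In the A-line, Bcl2 was at 31.8, 44.8 and 41.3 CPM in heterozygotes and at 43.3 CPM in the homozygous library, whose count of 757 gives an exact 95% Poisson interval of 40.2 to 46.4 CPM, for counting error only. The A-line HET libraries overlapped with those of G-line HET, and the A-line HOM library fell inside the A-line HET range.

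On the log2 scale, Bcl2 rose over WT by 1.83 ± 0.14 (SE) in G-line HOM (3.55-fold, adjusted p = 2.86e-06, 3 libraries a group). The rise was 1.17 ± 0.14 in G-line HET (2.24-fold, adjusted p = 0.000222), 1.28 ± 0.14 in A-line HET (2.43-fold, adjusted p = 0.000111) and 1.41 ± 0.18 in the A-line HOM library (2.66-fold, adjusted p = 0.000716). These p-values are from edgeR's quasi-likelihood test with Benjamini-Hochberg adjustment over 17588 genes, with a threshold of 0.05. For A-line HOM, with its single library, the spread was taken to be that of the other groups. The 4 comparisons share the WT libraries. Bcl2 also rose from G-line HET to G-line HOM, by 0.66 ± 0.13 (1.58-fold, adjusted p = 0.00663). All 5 calls held when any 1 library of the groups with 3 libraries was left out. The single A-line HOM library could not be left out, so its call was not checked in this way. With the shared pair left out the rise was 1.92 in G-line HOM and 1.26 in G-line HET. With the shared pair counted as A-line HOM, which leaves 1 WT library, none of the 5 calls remained (adjusted p from 0.0561 to 0.986).

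BIM, encoded by Bcl2l11, binds the main guardians and can activate BAX, and its gene was the other member that was higher in every mutant group. The WT libraries held 18.7, 14.0 and 14.6 CPM. G-line HET libraries were at 19.9, 28.1 and 21.3 CPM, the lowest of them close to the highest WT library, and G-line HOM libraries were at 36.7, 34.4 and 36.8 CPM. The heterozygous A-line libraries reached 40.03, 55.5 and 52.8 CPM, and the homozygous one 59.9 CPM (1048 counts, interval 56.3 to 63.6 CPM). WT thus had the lowest levels, followed by the G-line heterozygotes and homozygotes, then the A-line heterozygotes and the A-line HOM library, with no overlap at any step. Between G-line HOM and A-line HET, and between A-line HET and the A-line HOM library, the gap between nearest libraries was smaller than the SD of A-line HET (8.24 CPM), and these steps were not tested.

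**Figure D1:**
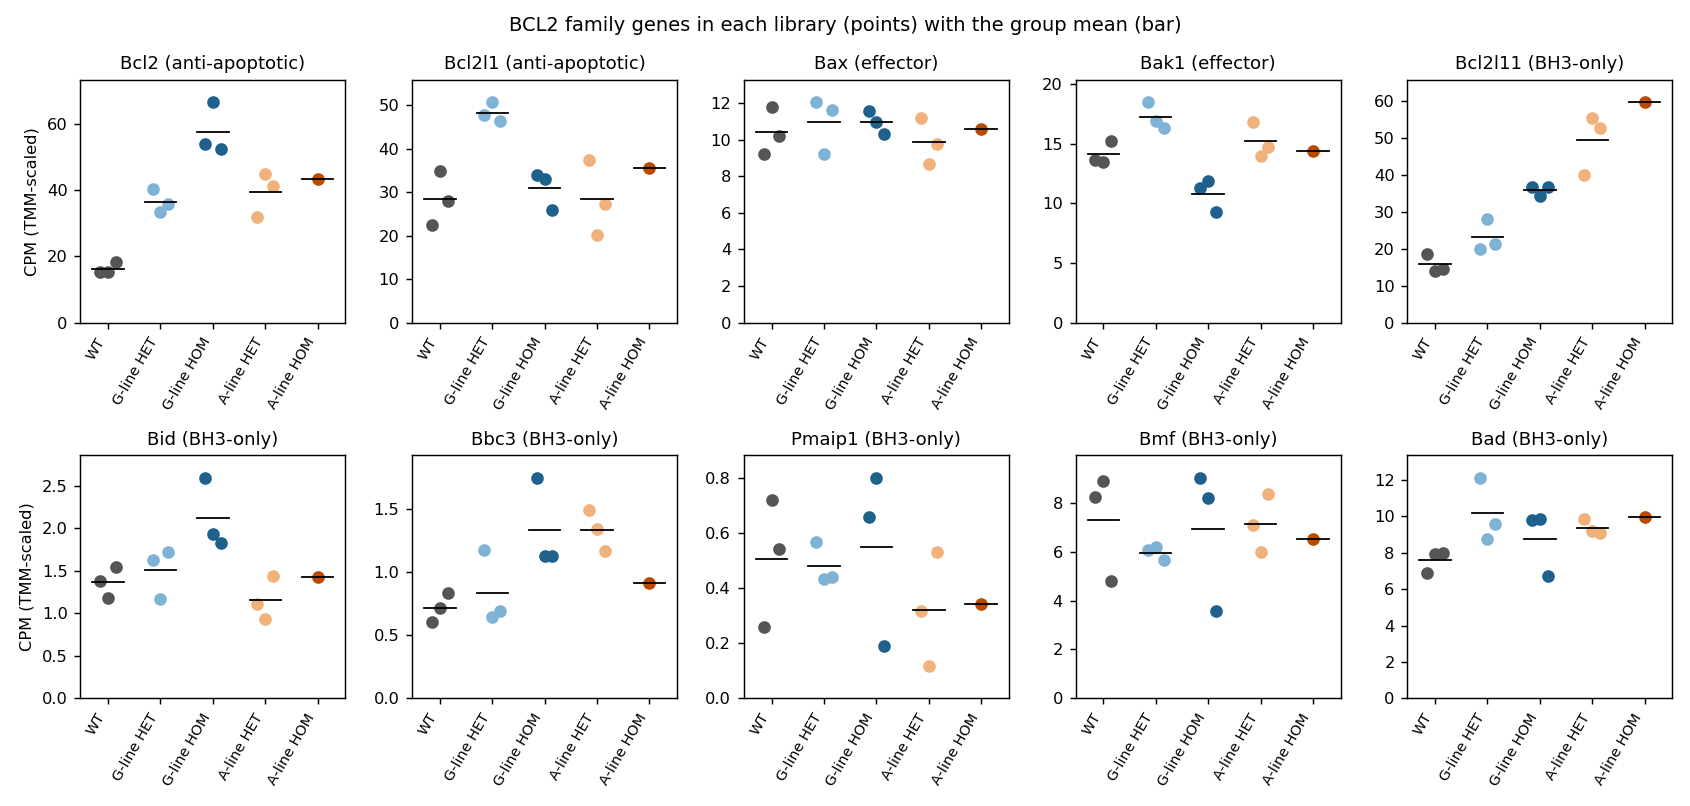
Level of the 10 genes in each of the 13 libraries, in TMM-scaled CPM on axes that start at 0 and differ between genes. Points are libraries and bars are group means. Bcl2 and Bcl2l11 lie above WT in every mutant library, while Bax stays between 8.69 and 12.1 CPM throughout.

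Bcl2l11 rose over WT by 1.19 ± 0.15 on the log2 scale in G-line HOM (2.28-fold, adjusted p = 0.000104), by 1.65 ± 0.16 in A-line HET (3.14-fold, adjusted p = 4.66e-05) and by 1.93 ± 0.20 in the A-line HOM library (3.798-fold, adjusted p = 0.000148). These 3 calls held when any 1 library of the groups with 3 libraries was left out, but the single A-line HOM library could not be. Bcl2l11 was chosen for its difference between A-line HET and G-line HET. Its tests that use either group are therefore not independent of that choice. The rise in G-line HET was smaller, at 0.55 ± 0.15 (1.46-fold, adjusted p = 0.0442), and its call was lost when some single libraries were left out. Without WT replicate 2 or 3 its adjusted p was 0.130 or 0.158, and without G-line HET replicate 1, 2 or 3 it was 0.0554, 0.153 or 0.0706. Leaving out the shared pair lowered this Bcl2l11 difference to 0.29 (adjusted p = 0.541), while the differences in G-line HOM, A-line HET and the homozygous A-line library were 0.94, 1.40 and 1.67 and stayed called. With the pair counted as A-line HOM, Bcl2l11 was not called against WT in any group (adjusted p from 0.475 to 0.986). From G-line HET to G-line HOM Bcl2l11 rose by 0.64 ± 0.15 (1.56-fold, adjusted p = 0.0137), a call lost without G-line HET replicate 1 (adjusted p = 0.0609) or 3 (adjusted p = 0.0564).

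Among the 10 genes the heterozygous lines differed most in Bcl2l11, and the gene was chosen for this difference, so it is described without a test. Its mean was 49.4 ± 8.24 CPM (SD, n = 3) in A-line HET and 23.1 ± 4.40 CPM in G-line HET, a log2 difference of 1.10 ± 0.15 (2.15-fold). All 3 A-line HET libraries lay above all 3 G-line HET libraries, and also above the 3 G-line HOM libraries. Among all genes tested, 0.0284% were called between the heterozygous lines, 0.0114% higher and 0.0171% lower in A-line HET. That share was 3.47% without A-line HET replicate 1 and 1.43% with DESeq2. None of the other 9 members was called there by edgeR. At an unadjusted p under 0.05 there was 1 of these 9, and DESeq2 also called 1, in both cases Bcl2l1.

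Other features of the libraries differed along with these levels. Malat1, an abundant nuclear long noncoding RNA, was at 13815 to 15158 CPM in WT, 14963 to 16690 CPM in G-line HET and 20454 to 21657 CPM in G-line HOM. It was at 15724 to 20016 CPM in A-line HET and 21050 CPM in the A-line HOM library. The share of mitochondrial ribosomal RNA was 20.2% to 23.4% in WT libraries and 10.8% to 17.1% in those of mutants. The summed level of the 7 fibroblast markers, none at 0 in any group, was 936 to 1624 CPM in WT, 1335 to 2270 CPM in G-line HET, 2058 to 2930 CPM in G-line HOM, 1393 to 2265 CPM in A-line HET and 1561 CPM in the A-line HOM library. The part of these shifts in the members' values was not tested, and in bulk tissue fewer cells of a type and less RNA per cell cannot be told apart. Without the 3 libraries set apart by Myl7, Bcl2 kept its 5 calls and Bcl2l11 its calls over WT in G-line HOM and in both A-line groups. Its calls in G-line HET over WT and G-line HOM over G-line HET then had an adjusted p of 0.154 and 0.0503, at log2 differences of 0.47 and 0.63.

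Bcl2l1 encodes BCL-XL, the other guardian among the 10, and it did not follow Bcl2. The WT libraries held 22.5, 34.9 and 28.0 CPM and the G-line HET libraries 47.7, 50.8 and 46.5 CPM. In G-line HOM the values were 33.9, 33.0 and 26.0 CPM, in A-line HET 37.5, 20.2 and 27.3 CPM, and in A-line HOM 35.5 CPM. Only the G-line HET libraries lay above all others, while G-line HOM and A-line HET overlapped with WT. Bcl2l1 rose in G-line HET by 0.76 ± 0.20 on the log2 scale (1.70-fold, adjusted p = 0.0413), and the call did not hold without WT replicate 1 (adjusted p = 0.153) or 3 (0.125) or without G-line HET replicate 1 (0.124), 2 (0.0943) or 3 (0.0877). Its value in G-line HOM over WT was 0.12 ± 0.20 (adjusted p = 0.709). The difference of G-line HOM from G-line HET, -0.64 ± 0.20, missed the threshold (adjusted p = 0.0527) and passed it in 7 of 18 alternatives, among them DESeq2 (adjusted p = 0.0115) and 6 edgeR fits (adjusted p from 0.00466 to 0.0488). Likewise the difference of A-line HET from G-line HET, -0.78 ± 0.20 (adjusted p = 0.174), passed in DESeq2 (0.0165) and in edgeR without A-line HET replicate 1 (0.0147).

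Bax, one of the pore-forming effectors, was called in no comparison. It ranged from 9.19 to 11.8 CPM in WT and from 8.69 to 12.1 CPM in the mutant libraries, with overlap in every comparison. Its log2 differences from WT lay between -0.08 and 0.08, each with an SE of 0.14 to 0.21.

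Bak1, which encodes the other effector, separated the G-line groups. It was at 13.7, 13.5 and 15.2 CPM in WT, at 18.5, 16.9 and 16.3 CPM in G-line HET and at 11.3, 11.8 and 9.30 CPM in G-line HOM. The libraries of these 3 groups did not overlap, whereas A-line HET (16.8, 14.0 and 14.7 CPM) and A-line HOM (14.4 CPM) overlapped with WT. Bak1 fell by 0.67 ± 0.12 on the log2 scale from G-line HET to G-line HOM (0.627-fold, adjusted p = 0.00374), a call kept under all alternatives. Against WT it fell by 0.39 ± 0.12 in G-line HOM (0.766-fold, adjusted p = 0.0291), a call that was gone without WT replicate 1 (adjusted p = 0.0537) or 3 (0.115), without G-line HOM replicate 3 (0.0975), without the shared pair (0.243) and without the libraries set apart by Myl7 (0.0687). The difference was -0.34 without the pair and -0.45 without those libraries. The G-line HET value over WT, 0.29 ± 0.12, did not pass (adjusted p = 0.164).

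Of the BH3-only genes other than Bcl2l11, edgeR called none in any comparison. At an unadjusted p under 0.05 there were 2 in G-line HOM, 1 in G-line HET and 1 in A-line HET against WT and 0 in the remaining comparisons, and DESeq2 called 0. With the shared pair in both groups, Bbc3 was called in G-line HOM against WT (adjusted p = 0.0478). The low counts of Bbc3, Bid and Pmaip1 limit what could be detected. PUMA, encoded by Bbc3 and a p53 target, was at 0.601, 0.719 and 0.834 CPM in WT, at 1.75, 1.13 and 1.13 CPM in G-line HOM and at 1.497, 1.34 and 1.17 CPM in A-line HET, from 14 to 56 counts a library. Neither of these groups overlapped with WT, yet the differences of 0.90 ± 0.34 and 0.88 ± 0.35 had adjusted p-values of 0.0607 and 0.146. G-line HET libraries, at 1.17, 0.648 and 0.696 CPM, overlapped with WT, and the A-line HOM library was at 0.914 CPM. How many of all genes lacked overlap was not counted, so lack of overlap here and elsewhere only describes the libraries. Bid, whose product links death receptors to mitochondria, was at 1.37, 1.17 and 1.54 CPM in WT and 2.60, 1.93 and 1.83 CPM in G-line HOM. The groups did not overlap, with a log2 difference of 0.64 ± 0.27 (adjusted p = 0.0976). Pmaip1, encoding NOXA, had only 2 to 21 counts a library, and its levels of 0.117 to 0.801 CPM overlapped in every comparison.

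Bmf and Bad encode BH3-only proteins that healthy cells hold inactive, BMF through a dynein light chain and BAD through 14-3-3 proteins. Bmf was at 3.57 to 9.04 CPM over all 13 libraries, and G-line HOM alone spanned that range. Bad was at 6.91, 7.91 and 8.01 CPM in WT and at 12.1, 8.76 and 9.60 CPM in G-line HET, without overlap, and its difference of 0.42 ± 0.17 did not pass (adjusted p = 0.145). In A-line HET Bad was at 9.85, 9.21 and 9.09 CPM, also above WT, with a difference of 0.30 ± 0.17 (adjusted p = 0.325).

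In all, 3 of the 10 genes were called in G-line HOM against WT (2 higher and 1 lower), where 26.4% of all genes tested were called (13.1% higher and 13.3% lower). In G-line HET against WT 3 were called, all higher, beside 7.52% of all genes (3.97% higher and 3.54% lower). In A-line HET 2 were called, both higher, beside 7.96% of all genes (3.99% higher and 3.97% lower). In A-line HOM 2 were called, both higher, beside 4.68% (2.82% higher and 1.86% lower). Between G-line HOM and G-line HET there were 3 (2 higher and 1 lower) beside 14.6% of all genes (6.22% higher and 8.42% lower). The members' median log2 difference from WT was 0.17 in G-line HOM, 0.26 in G-line HET, 0.04 in A-line HET and 0.19 in A-line HOM, and the median of all genes lay between -0.01 and 0.02 in these comparisons. The 3 of 10 in G-line HOM are near the share of all genes. For both A-line groups the called members were Bcl2 and Bcl2l11 alone. Bcl2l11 was chosen for its difference between the heterozygous lines, so its calls in comparisons with either of them are not independent of that choice.

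**Figure D2:**
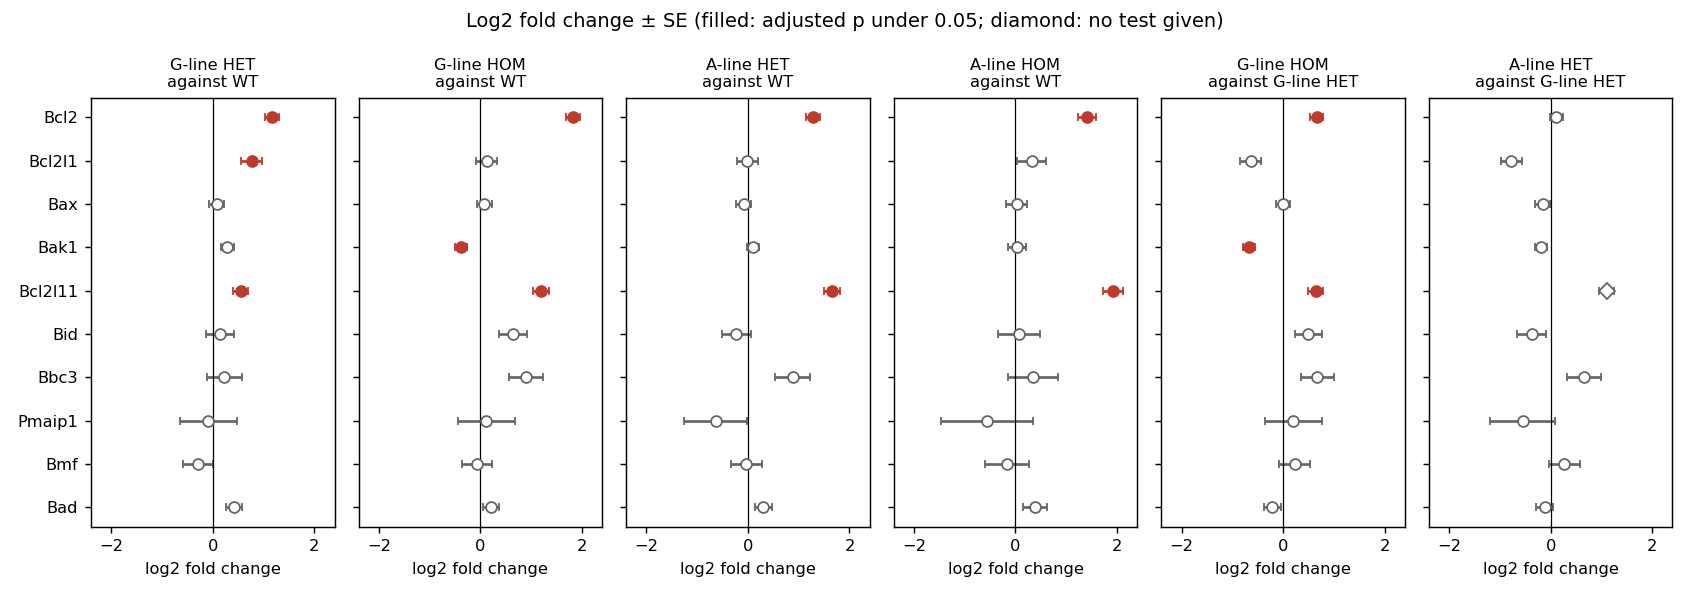
Log2 fold change of the 10 genes in 6 comparisons, with bars of ± SE. Filled points passed an adjusted p of 0.05 in edgeR, and the diamond marks Bcl2l11 between the heterozygous lines, given without a test at 1.10. Bcl2 and Bcl2l11 are filled in all comparisons with WT.

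Read counts per kilobase of exon allow only a rough comparison of levels between genes. The lengths join all annotated exons of a gene, and which transcripts were expressed was not measured. On the scale of CPM per kilobase, with exon lengths from GENCODE on GRCm38, the WT means were 6.59 for Bax, 6.21 for Bcl2l1 and 5.86 for Bak1. Bad stood at 2.97, Bcl2l11 at 1.96, Bcl2 at 1.77 and Bmf at 1.39, while Bid, Bbc3 and Pmaip1 were at 0.384, 0.338 and 0.185 CPM per kilobase. By this rough measure the order changed in the mutants. In G-line HOM Bcl2 was at 6.29 CPM per kilobase beside 6.75 for Bcl2l1 and 6.95 for Bax, with overlapping libraries. In A-line HET Bcl2l11 reached 6.15 CPM per kilobase, beside 6.26 for Bax and 6.18 for Bcl2l1, again with overlap.

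The ratio of 2 genes' counts within a library does not depend on the scaling between libraries. Bax over Bcl2 was 0.606, 0.772 and 0.557 in WT. G-line HET libraries had ratios of 0.300, 0.277 and 0.324 and G-line HOM libraries 0.215, 0.165 and 0.197. The A-line HET libraries were at 0.351, 0.194 and 0.236 and the A-line HOM library at 0.244. All mutant libraries lay below all WT libraries. Bcl2l11 over Bcl2 separated the lines. Bcl2l11 was chosen for its difference between the heterozygous lines, and Bcl2 was not called between them, so this partly restates that choice. WT libraries had ratios of 1.24, 0.916 and 0.799. The G-line gave 0.495, 0.845 and 0.594 for heterozygotes and 0.682, 0.516 and 0.704 for homozygotes. In the A-line it was 1.26, 1.24 and 1.28 in heterozygotes and 1.38 in the homozygous library. Every A-line library lay above every WT and G-line library, though the lowest A-line HET ratio, 1.238, was close to the highest WT ratio, 1.235. Without the shared pair the WT value is 1.235 alone. The ratios were not tested.

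**Figure D3:**
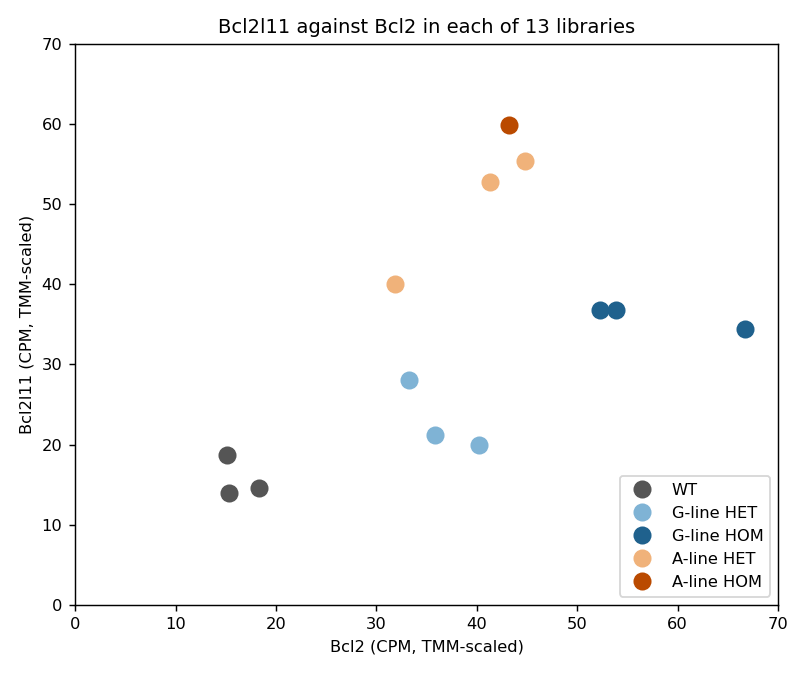
Bcl2l11 (vertical) against Bcl2 (horizontal) in each of 13 libraries, both in TMM-scaled CPM on linear axes. WT libraries sit at the lower left, G-line libraries extend to the right up to 66.7 CPM of Bcl2, and A-line libraries extend upward to 59.9 CPM of Bcl2l11.

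Iws1, Cmtm4, Abca4 and Slc35e2 were among the genes whose levels followed Bcl2l11 most closely. Pearson's r of log2(CPM + 0.5) over the 13 libraries was 0.947, 0.945, 0.945 and 0.922 in that order, among 12384 genes with a mean of at least 1 CPM. The libraries share groups and scaling, so r is a description. Abca4, which encodes a lipid transporter best known from the retina, had the widest range of these, with means of 6.70 CPM in WT, 13.3 and 20.3 CPM in G-line HET and HOM, 29.9 CPM in A-line HET and 37.3 CPM in the single A-line HOM library. Bcl2 had an r of 0.719 with Bcl2l11 and stood at rank 449.

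Of 20 other BCL2 family genes 14 could be tested. In G-line HOM 3 were higher and 2 lower than in WT and 9 were not called, beside 26.4% of all genes called, with 3 in all called without WT replicate 1 or 3 or G-line HOM replicate 1 or 2. The list's median was 0.12 on the log2 scale beside 0.01 for all genes. Bcl2l2, the guardian BCL-W, rose from 50.3 ± 1.35 to 68.1 ± 5.65 CPM (SD, n = 3), a log2 difference of 0.44 ± 0.10 (adjusted p = 0.00377). Bnip2 rose from 100.5 ± 1.83 to 136.3 ± 0.906 CPM (0.44 ± 0.07, adjusted p = 0.000535). Bcl2l13, a mitochondrial protein with a role in mitophagy, fell from 85.5 ± 3.65 to 62.7 ± 1.06 CPM (-0.45 ± 0.10, adjusted p = 0.00415). Bok rose from 2.09 ± 0.55 to 3.91 ± 1.67 CPM (0.91 ± 0.31, adjusted p = 0.0417), with overlapping libraries. Mtch2 fell from 119.8 ± 10.6 to 96.6 ± 8.97 CPM (-0.31 ± 0.10, adjusted p = 0.0282). None of the 14 was called by edgeR in G-line HET, A-line HET or A-line HOM against WT, where 4, 3 and 2 had an unadjusted p under 0.05, and DESeq2 called none there. Over all genes edgeR called 7.52%, 7.96% and 4.68% in these comparisons. Mcl1, a guardian with a short-lived protein, was named after its values were seen: its mean was 190.1 CPM in WT, 160.0 and 185.7 CPM in G-line HET and HOM, 156.1 CPM in A-line HET and 201.1 CPM in the single A-line HOM library, and it was not called in any comparison.

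Downstream of the pores, cytochrome c and APAF1 build the apoptosome, SMAC (Diablo) and AIF (Aifm1) leave the mitochondrion, and caspases cut targets such as PARP1. Of 22 genes of this mitochondrial route, 2 were higher and 6 lower in G-line HOM than in WT, beside 26.4% of all genes called. The route had 7 to 9 calls when any 1 library was left out, and its median was -0.14. Apaf1 rose from 17.0 ± 1.97 to 23.9 ± 1.88 CPM (0.49 ± 0.11, adjusted p = 0.00484). Vdac1, the main channel of the outer membrane, fell from 699 ± 36.3 to 439 ± 51.2 CPM (-0.67 ± 0.12, adjusted p = 0.00108). Parp1 fell by 0.57 ± 0.11 (adjusted p = 0.00139), Aifm1 by 0.50 ± 0.10 (adjusted p = 0.00288), Diablo by 0.40 ± 0.09 (adjusted p = 0.00465) and Dffa, the inhibitor of a caspase-activated DNase, by 0.62 ± 0.14 (adjusted p = 0.00471). The members that fell include factors that promote death and others with roles in healthy mitochondria or DNA repair. The summed ventricular cardiomyocyte markers were lower in the same group, as given above, and their part in these values was not tested. In A-line HET Aifm1 and Dffa were called lower, but 0 genes of the list were called without WT replicate 1 or 3 or A-line HET replicate 2 or 3, 1 without WT replicate 2 and 4 without A-line HET replicate 1. None was called in G-line HET or A-line HOM by edgeR, where 3 and 6 had an unadjusted p under 0.05 and DESeq2 called 2 and 1. Over all genes edgeR called 7.52% in G-line HET, 7.96% in A-line HET and 4.68% in A-line HOM.

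Of 16 death receptor and necroptosis genes tested, 2 were higher and 1 lower in G-line HOM than in WT, beside 26.4% of all genes called. Tnfrsf1b, the second TNF receptor, rose from 8.03 ± 1.54 to 16.6 ± 2.71 CPM (1.04 ± 0.16, adjusted p = 0.000295), and Cflar, which restrains caspase-8, rose from 72.2 ± 1.49 to 94.1 ± 5.75 CPM (0.38 ± 0.09, adjusted p = 0.00686). Tnfsf10, which encodes the death ligand TRAIL, was the 1 gene called lower in G-line HOM (-0.44 ± 0.13, adjusted p = 0.0261). That call was lost without WT replicate 1 or 3 or G-line HOM replicate 1 or 3. In G-line HET Tnfsf10 was the 1 gene called, where it fell from 22.7 ± 1.65 to 13.3 ± 2.52 CPM (-0.77 ± 0.13, adjusted p = 0.00355), and 2 genes of the list were called without WT replicate 2. It was also the 1 gene called in the A-line HOM library, at 12.4 CPM (-0.87 ± 0.20, adjusted p = 0.0272), a call lost without WT replicate 1 or 3. The list's median was 0.21 in G-line HOM, -0.01 in G-line HET and 0.05 in A-line HOM. Over all genes 7.52% were called in G-line HET and 4.68% in A-line HOM.

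The p53 list mixes p53, its regulators and its targets. Of 15 tested genes, 5 were higher and 2 lower in G-line HOM than in WT, beside 26.4% of all genes called. The median of the list was 0.31. Trp53inp1, a stress-induced p53 cofactor, was higher in all 4 mutant groups: 30.2 ± 4.59 CPM in WT against 51.4 ± 6.33 in G-line HET (adjusted p = 0.00603), 64.8 ± 5.79 in G-line HOM (adjusted p = 0.000129), 65.3 ± 12.0 in A-line HET (adjusted p = 0.000584) and 60.1 CPM in the A-line HOM library (adjusted p = 0.0112). Phlda3, an inhibitor of Akt, was at 5.004 ± 2.51 CPM in WT and rose to 14.5 ± 2.62 CPM in G-line HOM (log2 difference 1.53 ± 0.28, adjusted p = 0.00155). Perp, a membrane protein of cell junctions, rose to a like degree in G-line HET (0.53 ± 0.10, adjusted p = 0.004) and G-line HOM (0.51 ± 0.10, adjusted p = 0.00131). Ccng1, an abundant p53 target, instead fell in G-line HOM (-0.52 ± 0.11, adjusted p = 0.00329), A-line HET (-0.57 ± 0.11, adjusted p = 0.00661) and A-line HOM (-0.78 ± 0.17, adjusted p = 0.0162). In G-line HET 2 of the 15 were called, both higher, and in each A-line group 1 was higher and 1 lower. Over all genes the shares called were 7.52% in G-line HET, 7.96% in A-line HET and 4.68% in A-line HOM.

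**Figure D4:**
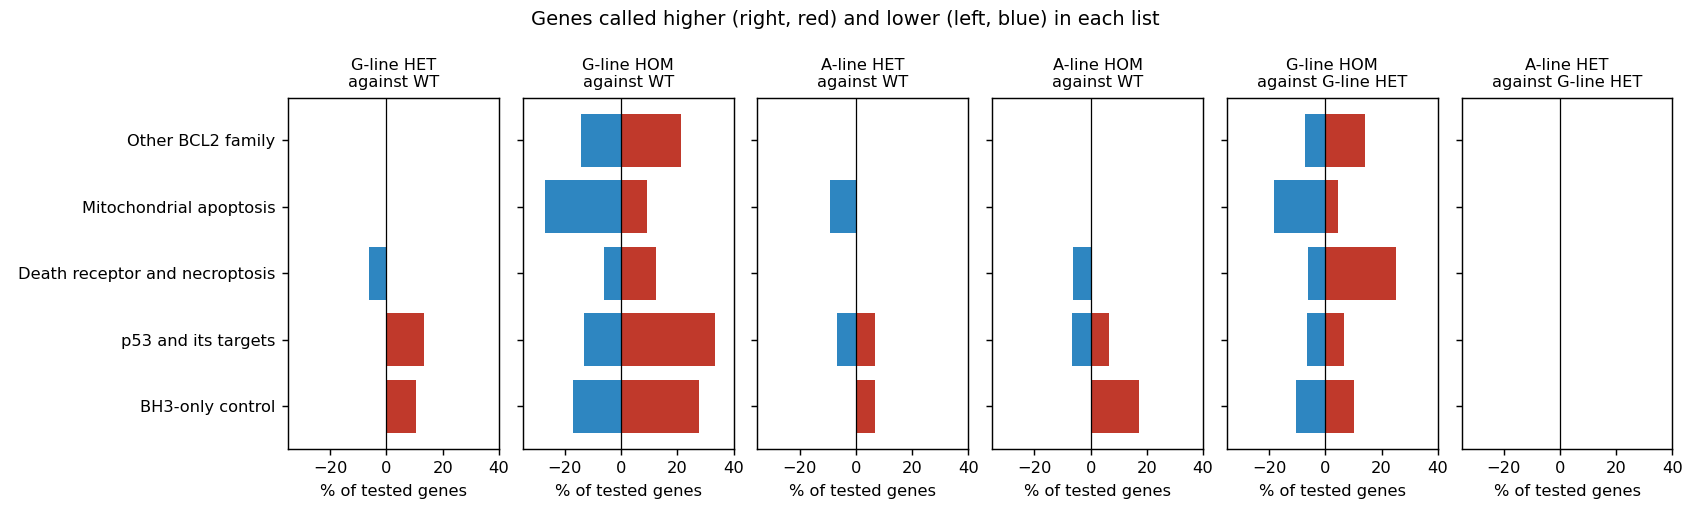
Share of the tested genes of 5 lists that were called higher (right) or lower (left), in percent, in 6 comparisons, by edgeR at an adjusted p of 0.05. Bars start at 0. G-line HOM against WT has calls in all 5 lists, and A-line HET against G-line HET has none.

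The last list held 29 kinases, factors and binding partners that control BH3-only proteins, among them the factors that switch on Bcl2l11, Bbc3 and Pmaip1 and the dynein light chains and 14-3-3 proteins that hold BMF, BIM and BAD. In G-line HOM 8 were higher and 5 lower than in WT, beside 26.4% of all genes called, with a median of 0.04. The count of 13 fell to 8 without WT replicate 1, 5 without WT replicate 3 and 7 without G-line HOM replicate 1. Atf4, the effector of the integrated stress response, was higher than WT in all 4 mutant groups. It was at 40.7 ± 1.81 CPM in WT, 70.2 ± 10.6 in G-line HET (adjusted p = 0.00057), 101.5 ± 3.33 in G-line HOM (adjusted p = 4.08e-06), 69.6 ± 6.58 in A-line HET (adjusted p = 0.000688) and 93.9 CPM in the A-line HOM library (adjusted p = 0.000329). Atf4 also rose from G-line HET to G-line HOM, by 0.53 ± 0.10 (adjusted p = 0.00585).

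Ddit3, the stress factor CHOP, was at 10.2 ± 0.996 CPM in WT and rose in G-line HET (0.69 ± 0.13, adjusted p = 0.00442), G-line HOM (0.86 ± 0.13, adjusted p = 0.00022) and A-line HET (0.72 ± 0.13, adjusted p = 0.00381). It was also called higher in the A-line HOM library (0.74 ± 0.17, adjusted p = 0.0281). Dynll1, a dynein light chain, rose from 16.5 ± 0.911 CPM in WT to 24.6 ± 2.91 CPM in heterozygous (adjusted p = 0.00433) and 29.5 ± 0.865 CPM in homozygous G-line libraries (adjusted p = 7.71e-05). The A-line HOM library held 25.1 CPM of Dynll1 (adjusted p = 0.03). In the A-line HOM library Jun, a stress-activated transcription factor, was at 61.0 CPM against 15.9 ± 2.57 in WT (1.94 ± 0.22, adjusted p = 0.000329), while A-line HET libraries were at 23.2, 23.2 and 24.4 CPM. Of the 29 genes 3 were called in G-line HET, all higher, and DESeq2 called 6. There were 2 in A-line HET, both higher, or 5 without A-line HET replicate 1 and 4 by DESeq2. A-line HOM had 5, all higher, or 2 without WT replicate 1 and 3 without WT replicate 3. Over all genes edgeR called 7.52% in G-line HET, 7.96% in A-line HET and 4.68% in A-line HOM.

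Within the G-line, 3 other BCL2 family genes, 5 genes of the mitochondrial route, 5 death receptor genes, 2 p53 genes and 6 genes of the BH3-only control list were called between homozygotes and heterozygotes, out of 14, 22, 16, 15 and 29 tested and beside 14.6% of all genes. The lowest count when 1 library was left out was 1, 2, 0, 0 and 3 in that order. It was reached without G-line HET replicate 1 in each list. In some lists it was also reached without G-line HET replicate 2 or 3 or G-line HOM replicate 1 or 2. Over all genes the share called was 7.63%, 7.62% and 8.49% without G-line HET replicate 1, 2 and 3. It was 8.33%, 6.67% and 16.0% without G-line HOM replicate 1, 2 and 3. The fall in calls was thus not particular to these lists. DESeq2 called 10 of the last list in place of 6, and 17.7% of all genes. Bcl2l13 (-0.48 ± 0.10, adjusted p = 0.00784), Vdac1 (-0.64 ± 0.12, adjusted p = 0.0051) and Parp1 (-0.50 ± 0.11, adjusted p = 0.00923) were lower in G-line HOM and kept their calls. Pim1, a kinase that phosphorylates BAD, was higher (1.07 ± 0.23, adjusted p = 0.0114), at 21.2 ± 7.81 CPM in G-line HOM beside 10.2 ± 1.03 CPM. Between the heterozygous lines edgeR called none of the 5 lists' genes. In list order, 3, 3, 3, 5 and 6 had an unadjusted p under 0.05, and DESeq2 called 1, 0, 0, 2 and 2. Without A-line HET replicate 1 edgeR called 2, 1, 1, 1 and 4.

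The calls against WT in these lists also depended on the shared pair. Without it WT has 1 library, and fewer of all genes were called in every comparison with WT. The lower counts are thus not particular to these lists. With the pair left out, the counts in G-line HOM against WT were 2 for the other BCL2 family genes, 6 for the mitochondrial route, 1 for death receptors, 4 for the p53 list and 5 for BH3-only control. In A-line HET the mitochondrial route had 0 and BH3-only control 1, in G-line HET BH3-only control had 1, and in the A-line HOM library death receptors and p53 had 0 each and BH3-only control 2. Of the genes named above, Bcl2l2, Bok, Mtch2, Diablo, Cflar, Tnfsf10 and Perp then lost their calls in G-line HOM. Perp, Dynll1 and Ddit3 lost theirs in G-line HET, and Aifm1, Dffa, Ccng1 and Ddit3 theirs in A-line HET. In the A-line HOM library Tnfsf10, Trp53inp1, Ccng1, Ddit3 and Dynll1 lost theirs. Atf4 kept its call over WT in all 4 mutant groups without the pair, and lost it in each of them with the pair counted as A-line HOM.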

How the data were processed

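Total RNA of mouse left ventricle was sequenced. The files the authors deposited hold raw counts for each gene symbol, with 1 table for WT and 1 for each line. Per the submitters' processing notes, bcl2fastq 2.20.0.422, Trimmomatic 0.39 and STAR 2.7.4a were used, with the builds mm39 and GRCm39. The counter, its annotation and any use of strand were not given in the sources at hand, so reads of antisense partners cannot be told apart.

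Groups came from the sample titles. Counts were used as deposited. Genes with at least 0.4217 CPM (10 counts in the median library) in 3 libraries and 15 counts in all were kept, which left 17588. In R 4.3.3, edgeR 4.0.16 (TMM, robust quasi-likelihood F test, two-sided) fitted a mean per group over 13 libraries, with 8 residual degrees of freedom. Benjamini-Hochberg adjustment covered all genes, and a gene was called at an adjusted p under 0.05. CPM were computed here from the counts. The procedure was tested on simulated data. The text names all 10 members, up to 6 called genes per list and comparison, and the 5 genes most like Bcl2l11, of which 1 is not reported here. The members and lists were chosen with earlier results of these data known, as were the alternatives: DESeq2 1.42.0, its size factors, 2 other filters, a fit of the 2 groups alone, a block for the replicate number, omission of mitochondrial and ribosomal RNA genes, 3 other treatments of the shared pair, and leaving out single libraries or those set apart by Myl7 or by shifted clock genes. Promoter windows are from RefSeq on GRCm38.p6, and 9 of 10 members had one.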

Additional observations from a re-analysis of the deposited data

Results flagged for a closer look

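Bcl2l11 differed between the heterozygous lines: the log2 level in A-line HET minus that in G-line HET was 1.10, with all 3 A-line HET libraries above all 3 G-line HET libraries. The gene was chosen for this difference, so it stands as a description and was not tested.

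The ratio of Bcl2l11 to Bcl2 counts moved in opposite directions in the heterozygous lines. Its mean in A-line HET minus the WT mean was 0.274, and each of the 3 A-line HET libraries lay above the WT mean. In G-line HET each of the 3 libraries lay below the WT mean, though replicate 2, at 0.845, lay above WT replicate 3, at 0.799. The G-line HET mean minus the WT mean was -0.339. Without the shared pair these differences were 0.0223 and -0.590, and the A-line HET value thus rests on the pair. They were 0.182 and -0.431 without WT replicate 3, and 0.400 and -0.213 without WT replicate 1. Bcl2l11 was chosen for its difference between these lines, so the ratio partly restates that choice. The difference between the lines was not tested.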

How the results depend on the processing

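No called value of a member turned its direction under any alternative. Of 223 alternative values of called members, 176 kept the call and 47 lost it. Members not called otherwise gained 10 calls, 9 of Bcl2l1 and 1 of Bbc3. Of 769 values that passed in neither fit, 62 had the other sign. Of 1168 alternative values of called list genes, 254 lost the call and 0 turned direction. With the shared pair counted as A-line HOM, fewer members were called in every comparison with WT and in G-line HOM against G-line HET. WT then had 1 library, and fewer of all genes were called in these comparisons too. The Bcl2 difference from WT was then 1.93 in G-line HOM, 1.26 in G-line HET, 1.38 in A-line HET and 0.75 in A-line HOM. For Bcl2l11 it was 0.94, 0.30, 1.40 and 0.64 in that order. With the pair in both groups, 0 were called in G-line HET, A-line HET and A-line HOM against WT, beside 2.45%, 0% and 0% of all genes. In that edgeR fit Bcl2l11 also lost its call in G-line HOM against WT (adjusted p = 0.0837), where Bcl2 kept its call and Bbc3 gained one. Bcl2 and Bcl2l11 both lost their calls in G-line HOM against G-line HET (adjusted p = 0.173 and 0.395). With the pair left out, WT also had 1 library, and fewer members and fewer of all genes were called in G-line HET against WT. Leaving out 1 library gave 1 to 2 members in G-line HET against WT, beside 2.98% to 6.72% of all genes. It gave 0 to 1 of the 9 members other than Bcl2l11 in A-line HET against G-line HET. The share of all genes there was 0% to 3.47%, and DESeq2 called 1 of the 9. The cause of these shifts was not tested.

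Same-numbered libraries showed little likeness: over 18 pairs the correlation of deviations from group means ran from -0.357 to 0.219, and 4 exceeded 0.1. With group means of 3 libraries, these values do not decide whether replicate numbers pair the libraries. With the replicate number as a block, 1 member was called in G-line HET against WT in place of 3, beside 5.52% of all genes. The counts were the same in the other 3 comparisons with WT, in G-line HOM against G-line HET, and over the 9 members other than Bcl2l11 between the heterozygous lines.

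Depth limits Pmaip1, Bbc3 and Bid most, with as few as 2, 14 and 14 counts in a library. The A-line HOM group has 1 library, and its comparison has no replicate of its own.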
